A study of Mus musculus with 19 samples.

Results

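The chemokine receptor genes Ccr1, Ccr2, Ccr3, Ccrl2, Ccr7, Ccr9, Cx3cr1, Cxcr2 and Cxcr4 were followed in bulk RNA-seq of monocytes sorted from mouse bone marrow. They were chosen by name from the 50854 genes of the count table, all 9 have a row, and all 9 were tested with the 18652 genes that had a mean of at least 1 read per library. The list does not hold every chemokine receptor gene. All mice were female and 8 to 12 weeks old, and the monocytes came from REP mice, in which the Clover reporter marks expression of CCR1 and the mRuby2 reporter marks expression of CCR2. How the reporter alleles were built is not given in the sources used here. For the bone marrow monocytes that the study cultured or sequenced as single cells, the stated gate was Ly6C-high, CD11b+, Ly6G- and SiglecF-. The methods text of the study does not repeat that gate for the bulk libraries. CCR1/2+ve monocytes carried both reporters and CCR2+ve monocytes carried the CCR2 reporter only. Resting mice gave 4 libraries of CCR1/2+ve and 4 of CCR2+ve monocytes. Inflamed mice, infused for 7 days with IL-3, IL-6, GM-CSF and IFN-α from implanted pumps, gave 3 libraries of CCR1/2+ve monocytes, 4 of CCR2+ve monocytes and 4 labelled inflamed CCR1. Whether resting mice carried pumps without cytokine is not given in the sources used here. The 19 libraries held between 22268658 and 30502009 reads on genes (median 23706580).

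Chemokine receptors are cell surface proteins that couple to inhibitory G proteins, sense gradients of secreted chemokines and steer leukocyte movement. CCR2 and its ligands CCL2 and CCL7 draw Ly6C-high monocytes out of the bone marrow into the blood, whereas CXCR4 and its ligand CXCL12 hold cells in the marrow. CX3CR1, the fractalkine receptor, rises as monocytes mature towards the patrolling type, CXCR2 serves neutrophils, and CCR3 is best known on eosinophils. CCR1 binds CCL3, CCL5, CCL6 and CCL9 and is found on monocytes, neutrophils and other myeloid cells.

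The libraries labelled inflamed CCR1 had the least Ccr1 RNA of all groups, and marker levels unlike those of the monocyte groups. Which gate gave them is not given in the sources used here. Their Ccr1 was at 37.1, 42.7, 32.01 and 40.05 CPM (read counts scaled to library size with TMM factors), below each of the other 15 libraries. The summed level of 14 monocyte markers was 8265 to 12995 CPM in these libraries and 32651 to 58851 CPM in the others, although Lyz2 and Ly6c2 were still at 8269 and 1419 CPM on average. The summed level of 14 neutrophil markers (the list's 15 without Cxcr2) was 109662 to 160056 CPM against 1589 to 4114 CPM in the others. Ngp (85941 CPM on average) and Camp (19943 CPM) made up most of it. Mmp8 went the other way, at 9.09 CPM on average against means of 451 to 1606 CPM in the monocyte groups. The summed level of 8 progenitor and early granule genes was 44535 to 53556 CPM against 278 to 6506 CPM. Summed T and NK cell markers were at 1360 to 1705 CPM against 4.6 to 81.4 CPM, nearly all of it Nkg7 (1560 CPM on average), while Cd3e was at 0.0454 CPM. The 5 eosinophil markers with a row summed to 39.3 to 89.0 CPM against 0.763 to 3.7 CPM. These 4 libraries are called the libraries labelled inflamed CCR1 here, and are not counted as monocytes. They touched the main fits of the other groups only through the filter on low counts, and they took part in the scaling of CPM levels, in the fits of all 19 libraries and in the likeness over 19 libraries.

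Of the 9 genes, 6 lie on chromosome 9, 2 on chromosome 1 and 1 on chromosome 11. Ccr1 (ENSMUSG00000025804, GRCm38, chromosome 9, 123962124 to 123968692, minus strand), Ccr3 (ENSMUSG00000035448, 124021972 to 124031689, plus strand) and Ccr2 (ENSMUSG00000049103, 124101950 to 124113557, plus strand) are neighbours, with gaps of 53.3 kb between Ccr1 and Ccr3 and 70.3 kb between Ccr3 and Ccr2. Ccr9 (ENSMUSG00000029530, 123678439 to 123784330, plus strand) ends 178 kb before Ccr1. Cx3cr1 (ENSMUSG00000052336, 119901616 to 120069879, minus strand) and Ccrl2 (ENSMUSG00000043953, 111054486 to 111057519, minus strand) lie farther off on the same chromosome. Cxcr2 (ENSMUSG00000026180, 74153989 to 74161246, plus strand) and Cxcr4 (ENSMUSG00000045382, 128588199 to 128592293, minus strand) are on chromosome 1, and Ccr7 (ENSMUSG00000037944, 99144196 to 99155077, minus strand) is on chromosome 11. Other genes overlapped 21.4% of the exonic bases of Ccr9, which makes its few reads uncertain, and 1.73% of those of Cx3cr1, and none overlapped the exons of the other 7 genes.

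Promoters were found for 8 of the 9 genes in a RefSeq table of build GRCm38.p6, and Ccr7 had no entry. The 250 bases before the start in that table are shown for the 3 neighbouring genes of chromosome 9, whose RNA moved differently with inflammation, for Cxcr4, which fell in both populations, and for Cxcr2. The RefSeq start of Ccr2 lies inside the gene span given above, which begins at 124101950, so most of its window is within that span. The windows of Ccr9 and Cx3cr1 and some of those of Ccrl2, which are not shown, also lie within their spans. They are Ccr1 chr9:123968693-123968942 (minus strand), Ccr3 chr9:124021721-124021970 (plus), Ccr2 chr9:124101933-124102182 (plus), Cxcr4 chr1:128592300-128592549 (minus) and Cxcr2 chr1:74153744-74153993 (plus), each written 5′ to 3′ on the strand of the gene, with motif matches in capitals.
Ccr1: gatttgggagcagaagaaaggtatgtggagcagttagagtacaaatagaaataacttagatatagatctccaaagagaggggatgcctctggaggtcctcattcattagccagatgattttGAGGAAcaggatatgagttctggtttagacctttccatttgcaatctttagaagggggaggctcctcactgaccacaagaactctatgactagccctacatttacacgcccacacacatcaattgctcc
Ccr3: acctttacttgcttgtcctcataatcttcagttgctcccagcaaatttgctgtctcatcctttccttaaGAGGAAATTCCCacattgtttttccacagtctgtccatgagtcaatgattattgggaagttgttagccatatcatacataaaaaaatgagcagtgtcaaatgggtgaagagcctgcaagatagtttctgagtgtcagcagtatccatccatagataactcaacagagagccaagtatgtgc
Ccr2: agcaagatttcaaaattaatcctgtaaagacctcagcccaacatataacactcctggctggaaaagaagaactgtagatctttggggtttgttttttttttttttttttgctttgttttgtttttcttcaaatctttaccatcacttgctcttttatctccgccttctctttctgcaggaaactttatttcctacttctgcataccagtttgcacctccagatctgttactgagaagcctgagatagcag
Cxcr4: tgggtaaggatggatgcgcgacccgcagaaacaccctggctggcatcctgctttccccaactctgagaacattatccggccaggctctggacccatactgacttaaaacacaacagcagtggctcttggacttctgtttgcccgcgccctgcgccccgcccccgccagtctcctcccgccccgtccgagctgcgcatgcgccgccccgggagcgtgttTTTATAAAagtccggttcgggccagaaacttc
Cxcr2: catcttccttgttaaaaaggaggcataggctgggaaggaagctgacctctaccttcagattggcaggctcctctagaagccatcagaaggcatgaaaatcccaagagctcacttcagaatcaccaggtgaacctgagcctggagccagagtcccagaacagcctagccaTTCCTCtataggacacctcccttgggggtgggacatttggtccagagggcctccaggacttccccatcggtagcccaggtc
The letters searched, on both strands, were GAGGAA for the core of PU.1 sites, GGG and TTTCC with any 2 bases between them for NF-kB, TATAAA for the TATA box, GAAA and GAAA with any 2 bases between them for interferon-stimulated response elements, TTC and GAA with any 3 bases between them for STAT sites, and TTG and CAA with any 2 bases between them for C/EBP. The PU.1 letters were found before Ccr1, Ccr3 and Cxcr2 and in 23.3% of the 32851 promoters of the same length. The NF-kB letters were found before Ccr3, where they overlap the PU.1 letters, and in 1.41% of all promoters. The TATA letters stood 30 and 32 bases before the start of Cxcr4, as overlapping matches on the 2 strands, and in 12.4% of all promoters. The interferon, STAT and C/EBP letters (in 2.98%, 7.02% and 5.65% of all promoters) were in none of the windows of the 8 genes. A match of letters is a description of the window and not a site.

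With inflammation Ccr1 rose and Cxcr4 fell in both monocyte populations. Cx3cr1 fell in both at an adjusted p below 0.05, in CCR1/2+ve monocytes by a log2 fold change of less than 1. Ccr2 rose in CCR1/2+ve monocytes, also by a log2 fold change of less than 1, to a level that overlapped with that of CCR2+ve monocytes. In resting mice CCR1/2+ve monocytes had less Cx3cr1 and more Cxcr4, Cxcr2 and Ccr3 than CCR2+ve monocytes. A gene counted as called where its adjusted p was under 0.05 and its log2 fold change was 1 or more in size, the cutoffs of the study. Between resting CCR1/2+ve and CCR2+ve monocytes 3 of the 9 genes were called, against 4.25% of all genes tested, and 6 of 9 had an adjusted p below 0.05, against 16.9% of all genes. Ccr1 and Ccr2 are 2 of those 6, and their proteins' reporters set the sort. With inflammation 5 of 9 were called in CCR2+ve monocytes, against 28.6% of all genes, and the same 5 had an adjusted p below 0.05, against 47.8%. In CCR1/2+ve monocytes 3 of 9 were called, against 28.5% of all genes, and 5 of 9 had an adjusted p below 0.05, against 46%. The median log2 fold change of the 9 genes and that of all genes tested were 0.05 and 0.03 between the resting populations, −0.32 and −0.10 with inflammation in CCR2+ve monocytes, and 0.19 and −0.25 in CCR1/2+ve monocytes. Each resting group serves in 2 of these comparisons and each inflamed monocyte group in more than 1, so the comparisons are not independent of each other. Nothing in the labels says whether libraries of a group came from separate mice, so p-values measure the spread between these libraries. Nor do they say whether resting and inflamed libraries were prepared together. A change with inflammation and a difference in handling therefore cannot be told apart.

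**Figure D1:**
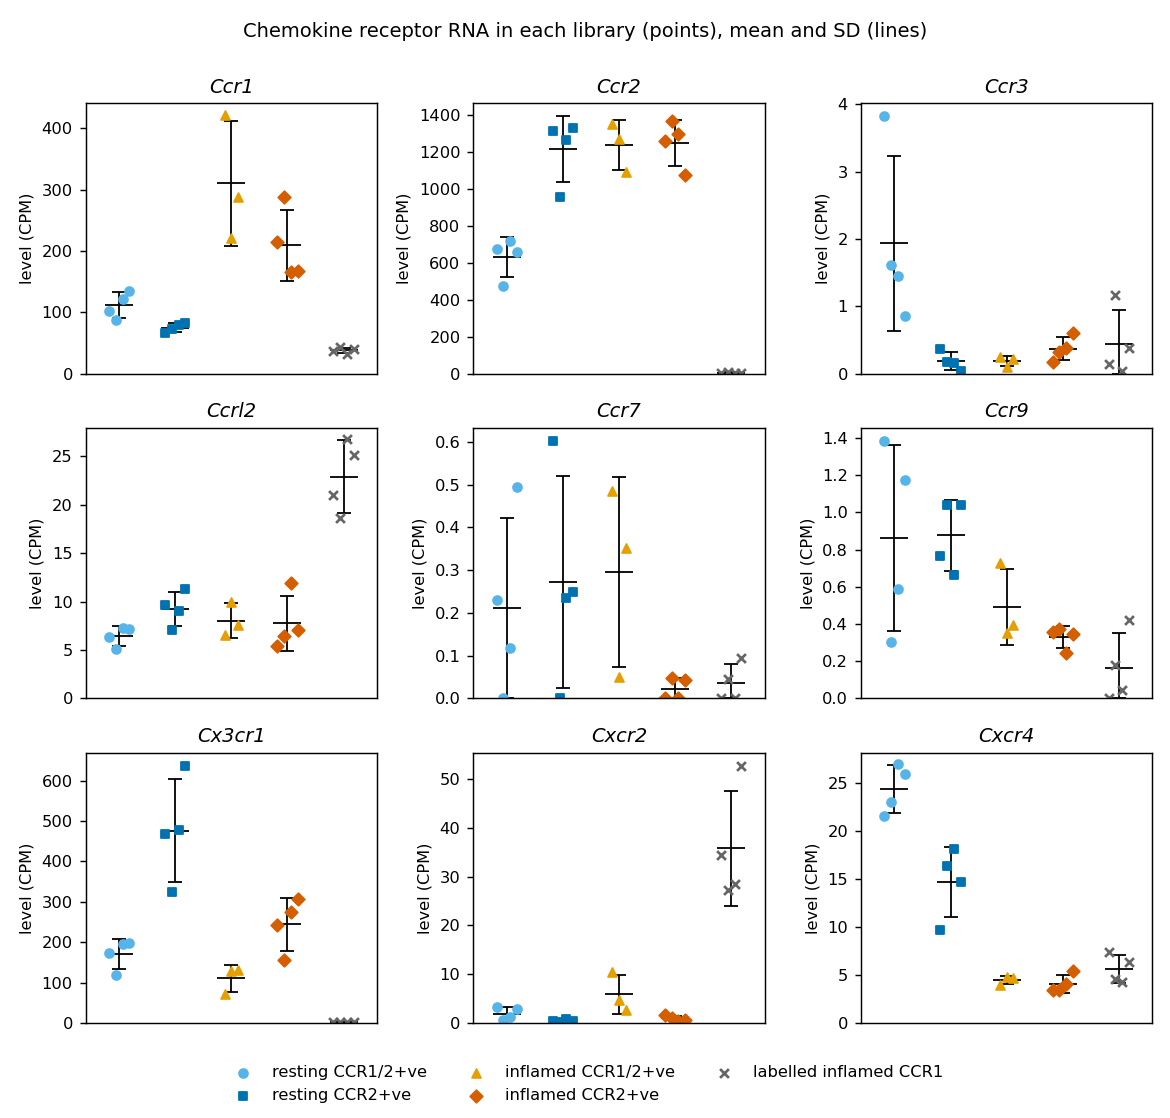
Level of each chemokine receptor gene in CPM (vertical axes, linear, from 0) in the 19 libraries, by group, with horizontal lines for the mean and bars for the SD, cut off at 0. Ccr1 was highest in the 7 libraries of inflamed monocytes, Cxcr4 was highest in the 8 resting libraries, and the libraries labelled inflamed CCR1 had the least Ccr1, Ccr2 and Cx3cr1 and the most Cxcr2 and Ccrl2.

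Ccr1 encodes the receptor whose reporter parts the 2 populations. In resting CCR1/2+ve monocytes it was at 103, 88.02, 122 and 135 CPM, and in resting CCR2+ve monocytes at 66.6, 72.5, 78.7 and 82.7 CPM. The groups did not overlap, yet the mean of the CCR1/2+ve monocytes was only 1.57 times that of the CCR2+ve monocytes (log2 fold change 0.65, standard error 0.11), so Ccr1 RNA was present in cells sorted as lacking the CCR1 reporter. These values describe the gate and were not read as a test of it. Inflamed CCR2+ve monocytes were at 215, 288, 166 and 167 CPM. All 4 lay above every resting library of either population, including those sorted for the CCR1 reporter. Against resting CCR2+ve monocytes the log2 fold change was 1.40 (standard error 0.15, adjusted p = 1.7e-06), a 2.64-fold rise. Inflamed CCR1/2+ve monocytes were at 421, 221 and 288 CPM and did not overlap with the resting group. The rise was 2.54-fold (log2 fold change 1.34, standard error 0.19, adjusted p = 0.000315), and the change did not differ detectably between the populations (interaction −0.10 on the log2 scale, 95% interval −0.62 to 0.42, adjusted p = 0.92). In inflamed mice the 2 populations overlapped for Ccr1 (means 309.9 and 209 CPM, log2 fold change 0.55, 95% interval 0.06 to 1.03, adjusted p = 0.574). In bulk samples, fewer cells with a transcript and less of it per cell cannot be told apart.

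Ccr2 was the most abundant of the 9 genes per exon length in all 4 monocyte groups. Resting CCR1/2+ve monocytes had 677, 474, 719 and 662 CPM of Ccr2 and resting CCR2+ve monocytes had 1316, 955, 1267 and 1335 CPM. The double-positive cells thus had the lower level in each library (mean 633 ± 109 against 1218 ± 178 CPM, SD, n = 4 each), a log2 fold change of −0.87 (standard error 0.13), which again describes sorted gates. Inflamed CCR1/2+ve monocytes were at 1354, 1274 and 1092 CPM, all above the resting libraries of that population. The log2 fold change was 0.84 (standard error 0.12, adjusted p = 0.000118), a 1.8-fold rise that passed the adjusted p but not the fold cutoff. Inflamed CCR2+ve monocytes were at 1259, 1370, 1301 and 1075 CPM and overlapped with resting CCR2+ve monocytes. Their log2 fold change was −0.03 (95% interval −0.25 to 0.19, adjusted p = 0.842). The difference between these changes, the interaction of population and inflammation, was 0.83 on the log2 scale (standard error 0.18, adjusted p = 0.0478). This value takes in the resting difference between the gates, so it too describes sorted groups. Both gates required the CCR2 reporter, and the CCR1 reporter parted them. Interaction was called at an adjusted p below 0.05, which 2 of the 9 genes and 0.397% of all genes reached. The median interaction was 0.47 over the 9 genes and −0.10 over all genes. The call of the Ccr2 interaction was lost in 11 of the 15 fits that left out 1 library, all but those without resting CCR1/2+ve replicate 1, resting CCR2+ve replicate 2, inflamed CCR1/2+ve replicate 4 or inflamed CCR2+ve replicate 4. Its log2 value stayed between 0.73 and 0.93 in these fits while its adjusted p reached 0.164 (without inflamed CCR1/2+ve replicate 3), and it was 0.1 in a fit of all 19 libraries.

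**Figure D2:**
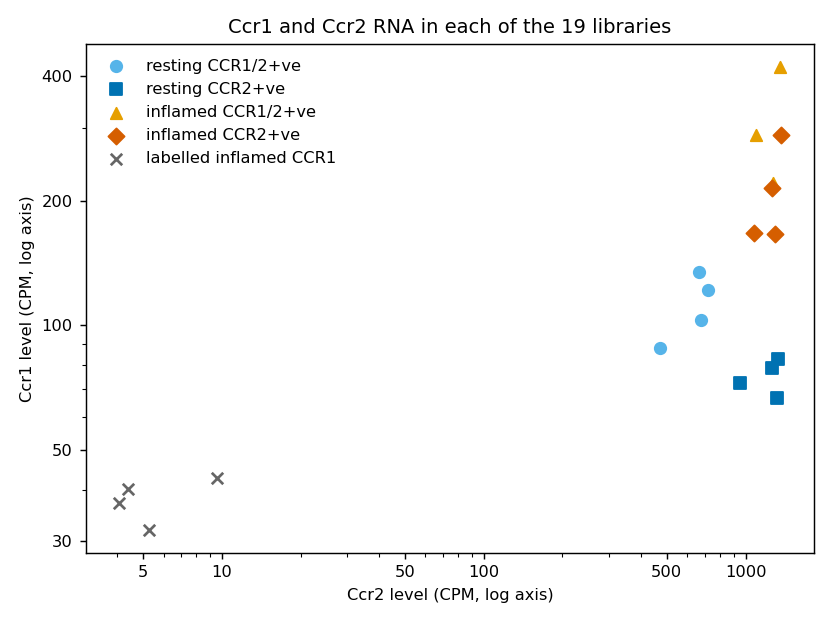
Ccr1 level against Ccr2 level in each of the 19 libraries (CPM, both axes logarithmic), by group. The resting populations lie apart on the Ccr2 axis, the inflamed monocytes of both sorts lie together at the upper right, and the libraries labelled inflamed CCR1 lie at the lower left with Ccr2 at 4.04 to 9.57 CPM.

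The balance of Ccr1 and Ccr2 reads within a library, per exon length, does not depend on the scaling between libraries. Ccr1 was 36.2 to 48.6% of Ccr2 in resting CCR1/2+ve monocytes and 12.1 to 18.1% in resting CCR2+ve monocytes. In inflamed CCR2+ve monocytes it was 30.4 to 50.2%, a range that does not overlap with that of resting CCR2+ve monocytes and covers that of resting CCR1/2+ve monocytes. Inflamed CCR1/2+ve monocytes ranged from 41.4 to 74.2%. In the libraries labelled inflamed CCR1, low in both genes, Ccr1 was 1065 to 2190% of Ccr2.

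Cx3cr1, the gene of the fractalkine receptor, was lower in CCR1/2+ve than in CCR2+ve monocytes at rest. Resting CCR1/2+ve libraries were at 173, 118, 194 and 198 CPM and resting CCR2+ve libraries at 468, 323, 477 and 637 CPM. The groups did not overlap, and the log2 fold change was −1.40 (standard error 0.19, adjusted p = 0.00043), 2.65-fold lower in CCR1/2+ve monocytes. Inflamed CCR2+ve libraries were at 242, 155, 275 and 306 CPM, below every resting CCR2+ve library. Their log2 fold change was −1.02 (standard error 0.22, adjusted p = 0.00163), just past the fold cutoff. It fell short of that cutoff with RLE size factors (−0.99), DESeq2 (−0.99), all 19 libraries in one fit (−0.96), without resting CCR2+ve replicate 1 (−0.97), 3 (−0.96) or 4 (−0.79) and without inflamed CCR2+ve replicate 2 (−0.85), where the adjusted p was at most 0.00693. Inflamed CCR1/2+ve libraries were at 72.6, 129 and 130.1 CPM, of which the upper values overlapped with the lowest resting library. The log2 fold change, −0.74 (standard error 0.23, adjusted p = 0.0286) passed the adjusted p and not the fold cutoff. Its adjusted p was 0.107, 0.0785 and 0.0658 without resting CCR1/2+ve replicates 1, 3 and 4, 0.0875 without a filter on low counts and 0.053 with all 19 libraries in one fit. The change did not differ detectably between the populations (interaction 0.23, 95% interval −0.48 to 0.95, adjusted p = 0.844). The 9 other genes of the nonclassical monocyte list summed to 286 to 352 CPM in resting CCR1/2+ve and 418 to 504 CPM in resting CCR2+ve monocytes, the same order as Cx3cr1. With inflammation that sum was 542 to 794 and 529 to 827 CPM, a rise carried by Itgal, an integrin gene, which went from 138 to 448 CPM in CCR1/2+ve and from 188 to 434 CPM in CCR2+ve monocytes. Of 10 genes listed, Cx3cr1 among them, 2 rose and 5 fell in CCR2+ve monocytes at an adjusted p below 0.05 (median log2 fold change −0.52, against −0.10 over all genes), and 2 rose and 2 fell in CCR1/2+ve monocytes (median 0.08, against −0.25). Over all genes 47.8% and 46% passed that threshold in either direction in CCR2+ve and CCR1/2+ve monocytes. Ace, for example, went from 23.4 to 5.3 CPM in CCR2+ve monocytes. The part of such cells in these values was not tested.

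Cxcr4, the marrow retention receptor, fell with inflammation in both populations. It was at 21.5, 23.1, 27.01 and 25.99 CPM in resting CCR1/2+ve monocytes and at 3.97, 4.75 and 4.7 CPM in inflamed ones, a 5.94-fold fall (log2 fold change −2.57, standard error 0.15, adjusted p = 9.66e-08). CCR2+ve monocytes went from 9.67, 16.3, 18.2 and 14.7 CPM at rest to 3.45, 3.4, 4.06 and 5.38 CPM inflamed, a 3.77-fold fall (log2 fold change −1.91, standard error 0.22, adjusted p = 4.28e-06). Neither population's inflamed libraries overlapped with its resting ones. At rest CCR1/2+ve monocytes had more Cxcr4 than CCR2+ve monocytes in every library (log2 fold change 0.81, standard error 0.16, adjusted p = 0.004). After inflammation the populations overlapped (log2 fold change 0.12, 95% interval −0.35 to 0.59, adjusted p = 0.925). The interaction of −0.70 on the log2 scale did not pass the test (standard error 0.28, adjusted p = 0.289). The summed progenitor and early granule genes were also highest in resting CCR1/2+ve monocytes (3053 to 6506 CPM), lower in resting CCR2+ve monocytes (464 to 1624 CPM), and at 732 to 1179 and 278 to 558 CPM in inflamed CCR1/2+ve and CCR2+ve monocytes. Of the 8 genes, 7 fell with inflammation in CCR1/2+ve and 5 in CCR2+ve monocytes at an adjusted p below 0.05. Over all genes 46% and 47.8% passed that threshold in either direction. In the libraries labelled inflamed CCR1 that sum was over 44535 CPM while Cxcr4 was at 7.36, 4.6, 4.3 and 6.4 CPM. The part of less mature cells in the Cxcr4 values of monocytes was not tested.

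**Figure D3:**
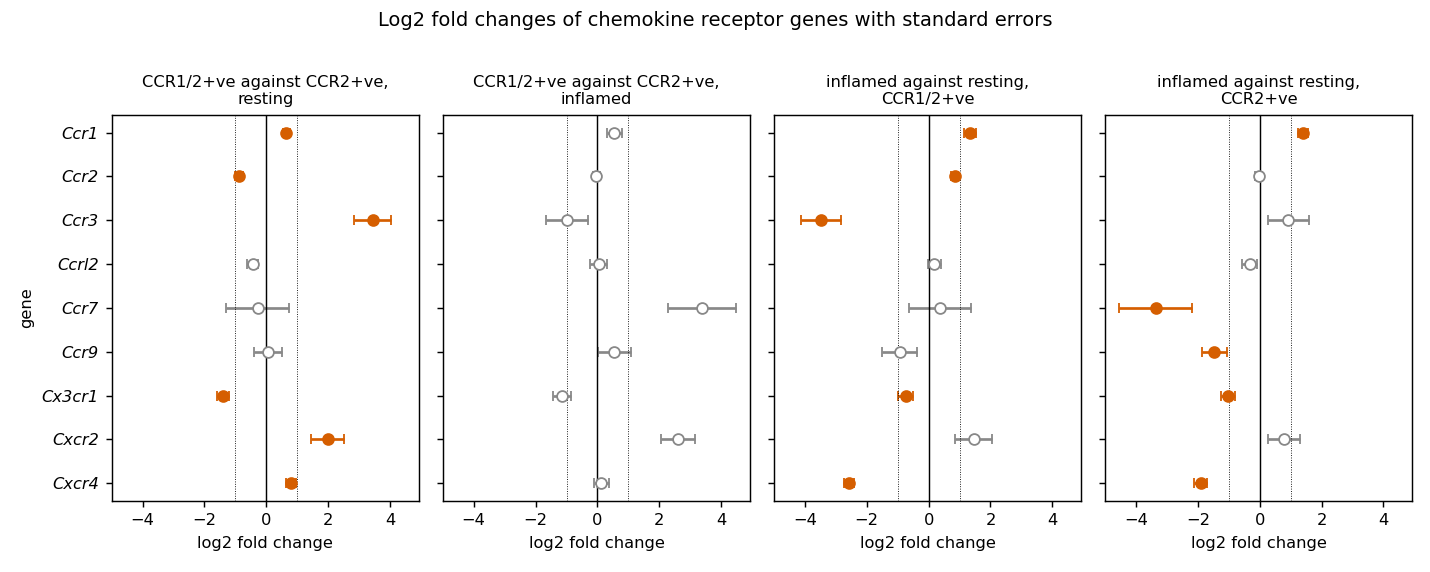
Log2 fold changes (horizontal axes) with standard errors as bars for the 9 genes in the 4 comparisons of monocyte groups. Filled points have an adjusted p below 0.05 and dotted lines mark the fold cutoff. Ccr1 rose and Cxcr4 fell with inflammation in both populations, and no gene was past the test between the inflamed populations.

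Cxcr2, the receptor of neutrophils for CXCL1 and CXCL2, was a minor transcript in monocytes. Resting CCR1/2+ve libraries were at 3.2, 0.61, 1.14 and 2.81 CPM (20 to 97 reads) and resting CCR2+ve libraries at 0.442, 0.251, 0.898 and 0.456 CPM (7 to 23 reads). The lowest CCR1/2+ve library lay below the highest CCR2+ve library, although CCR1/2+ve monocytes were higher in 4 of 4 same-numbered pairs, and the log2 fold change was 1.99 (standard error 0.54, adjusted p = 0.0223). The call was lost when 1 of 4 libraries was left out: adjusted p was 0.0687 without CCR1/2+ve replicate 1, 0.0635 without CCR1/2+ve replicate 4, 0.0644 without CCR2+ve replicate 1 and 0.0663 without CCR2+ve replicate 4. The call was kept with replicate number as a block in the edgeR fit (log2 fold change 1.86, adjusted p = 0.00327) and with DESeq2 (2.00, adjusted p = 0.00278). Inflamed CCR1/2+ve libraries were at 10.4, 4.65 and 2.59 CPM and inflamed CCR2+ve libraries at 1.64, 1.07, 0.339 and 0.688 CPM. These did not overlap, and the log2 fold change of 2.61 (standard error 0.54) had an adjusted p of 0.142 (unadjusted p = 0.000816). The rise with inflammation did not pass the test in CCR1/2+ve monocytes (log2 fold change 1.46, adjusted p = 0.0792) or in CCR2+ve monocytes (0.80, adjusted p = 0.226). The 14 other neutrophil markers summed to 3241 to 4066 CPM in resting CCR1/2+ve against 1589 to 2272 CPM in resting CCR2+ve monocytes, and to 3612 to 4114 against 2082 to 2268 CPM in inflamed ones. At rest 7 of the 15 listed markers, Cxcr2 among them, were higher and 1 was lower in CCR1/2+ve monocytes at an adjusted p below 0.05, against 16.9% of all genes in either direction. The resting sum differed mainly through S100a8 (1769.9 against 157 CPM) and S100a9 (325 against 20.2 CPM), and Lcn2 (94.9 against 21.3 CPM) and Mmp9 (2.11 against 0.0773 CPM) were also at higher levels. Cd177 (633 against 874 CPM) and Mmp8 (451 against 548 CPM) were at lower levels, and Ly6g was at 0.49 and 0.447 CPM. Between the inflamed populations 2 of the 15 markers were higher at an adjusted p below 0.05 and none was lower, against 0.188% of all genes in either direction. The part of neutrophils in the Cxcr2 values was not tested.

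Ccr3 had few reads in every group. It had 116, 53, 37 and 28 reads in resting CCR1/2+ve monocytes (3.82, 1.62, 1.45 and 0.863 CPM) and 9, 5, 4 and 1 reads in resting CCR2+ve monocytes. In inflamed monocytes it had 5, 2 and 5 reads (CCR1/2+ve) and 4, 7, 8 and 14 reads (CCR2+ve). The resting CCR1/2+ve libraries thus stood above each of the other 11 monocyte libraries. Their log2 fold change against resting CCR2+ve monocytes was 3.44 (standard error 0.60, adjusted p = 0.00185), a 10.8-fold difference of a minor transcript. With inflammation Ccr3 fell in CCR1/2+ve monocytes (log2 fold change −3.48, standard error 0.65, adjusted p = 0.000889), and in CCR2+ve monocytes the log2 fold change was 0.92 (standard error 0.67, adjusted p = 0.28). The interaction was −4.44 on the log2 scale (standard error 0.90, adjusted p = 0.0447). This call too was lost in 11 of the 15 fits that left out 1 library, all but those without resting CCR1/2+ve replicate 4, resting CCR2+ve replicate 1 or 2 or inflamed CCR2+ve replicate 4. Its log2 value stayed between −4.96 and −3.86 while its adjusted p reached 0.162 (without inflamed CCR1/2+ve replicate 3), and it was 0.0544 in a fit of all 19 libraries. The 5 eosinophil markers summed to 1.48 to 3.7 CPM in resting CCR1/2+ve monocytes, 0.763 to 1.47 CPM in resting CCR2+ve monocytes and 2 to 2.96 CPM in inflamed CCR1/2+ve monocytes, where Ccr3 was low. Epx, the eosinophil peroxidase gene, had no read in either resting group or in inflamed CCR1/2+ve monocytes. The resting CCR1/2+ve library with the most Ccr3 (replicate 1) had the lowest eosinophil sum of its group, 1.48 CPM. In that group the sum was mostly Siglecf (2.25 CPM on average), the gene of a surface protein that the study's stated gate for its other sorts excludes. Basophil and mast cell markers summed to 0.0925 to 19.5 CPM in resting CCR1/2+ve and 127 to 178 CPM in inflamed CCR1/2+ve monocytes, mostly Prss34 (4.42 and 142 CPM on average). In CCR2+ve monocytes the sum was 3.11 to 10.9 CPM at rest and 106 to 239 CPM inflamed. In the libraries labelled inflamed CCR1, Ccr3 had 3, 26, 1 and 8 reads, and the library with 26 had the highest eosinophil sum of all, 89.0 CPM. The part of eosinophils, basophils or mast cells in the Ccr3 values was not tested.

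**Figure D4:**
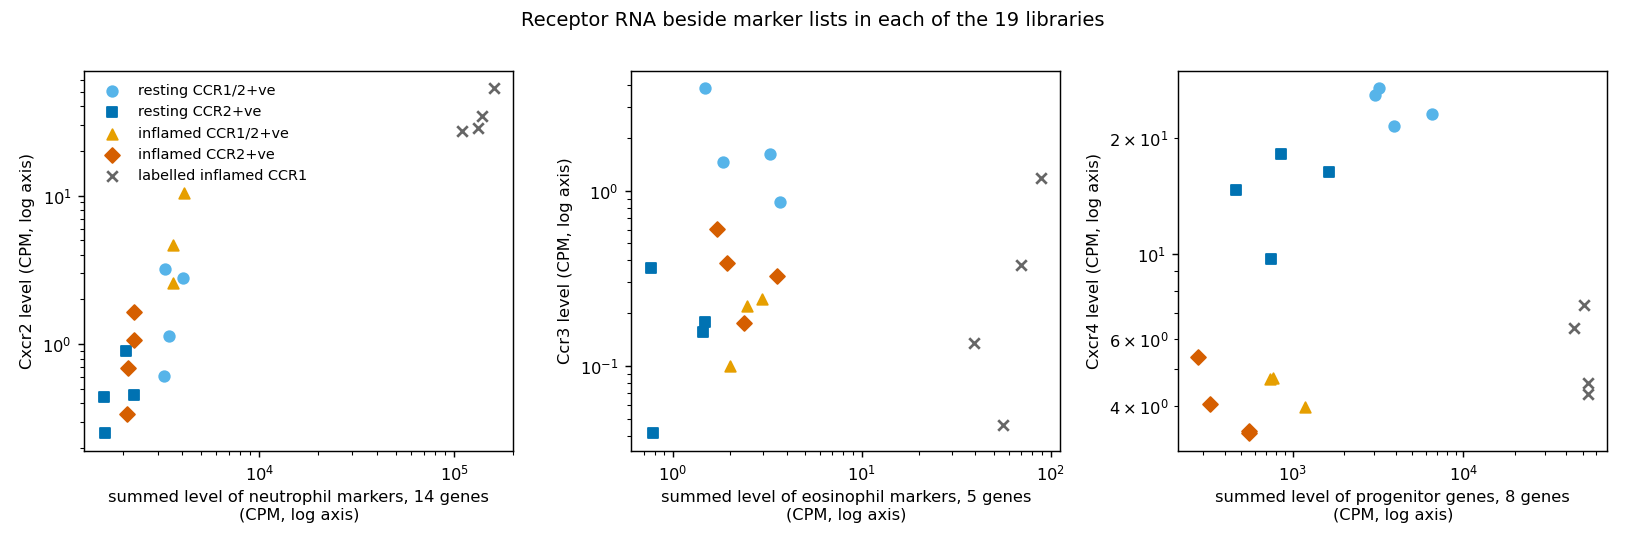
Levels of Cxcr2, Ccr3 and Cxcr4 (vertical axes) against the summed levels of neutrophil markers (14 genes without Cxcr2), eosinophil markers (5 genes) and progenitor and early granule genes (8 genes) in each of the 19 libraries, in CPM on logarithmic axes. Mean Cxcr2 and the neutrophil sum were both lowest in CCR2+ve monocytes and highest in the libraries labelled inflamed CCR1, and the library with the most Ccr3 had the lowest eosinophil sum among resting CCR1/2+ve monocytes and the highest among the libraries labelled inflamed CCR1.

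The remaining genes were low in monocytes. Ccrl2 encodes an atypical receptor that binds chemerin and does not signal as chemokine receptors do. It was at 6.36, 5.06, 7.28 and 7.15 CPM in resting CCR1/2+ve and 9.59, 7.03, 9.02 and 11.3 CPM in resting CCR2+ve monocytes (log2 fold change −0.44, 95% interval −0.77 to −0.11, adjusted p = 0.0998). The resting populations were paired by replicate number on the correlation of their deviations, CCR1/2+ve monocytes were lower in 4 of 4 pairs, and with the replicate block Ccrl2 passed the adjusted p but not the fold cutoff (log2 fold change −0.43, adjusted p = 0.0343). The inflamed populations were at 6.49 to 9.99 and 5.45 to 11.9 CPM, within or close to the resting ranges (log2 fold changes 0.19 and −0.32 against rest, adjusted p = 0.489 and 0.29). Ccr9, the receptor for CCL25 and a mark of plasmacytoid dendritic cells, was at 0.305 to 1.38 CPM in resting CCR1/2+ve and 0.664 to 1.04 CPM in resting CCR2+ve monocytes. It fell in CCR2+ve monocytes with inflammation to 0.242 to 0.372 CPM (5 to 8 reads), without overlap (log2 fold change −1.47, standard error 0.41, adjusted p = 0.00795). In CCR1/2+ve monocytes its log2 fold change was −0.94 (95% interval −2.06 to 0.19, adjusted p = 0.21). The 8 other plasmacytoid dendritic cell markers summed to 91.8 to 126 CPM in resting and 93.5 to 111 CPM in inflamed CCR2+ve monocytes, a sum made up almost wholly of Tcf4 (107 and 97.7 CPM). Of the 9 listed markers, Ccr9 among them, 5 fell at an adjusted p below 0.05 and none rose, against 47.8% of all genes past that threshold in either direction, and the median log2 fold change was −2.66, against −0.10 over all genes. Siglech went from 2.48 to 0.177 CPM and Ly6d from 1.45 to 0.24 CPM, moving with Ccr9. Their part in the Ccr9 value was not tested.

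Ccr7, which guides dendritic cells to lymph nodes, had 0 to 16 reads in any library. Resting CCR2+ve monocytes had 15, 0, 6 and 6 reads and inflamed CCR2+ve monocytes 0, 1, 0 and 1, a group at the floor, set at 3 reads or fewer per library. The groups overlapped at 0, and the ratio of summed reads was 0.0863 (2 against 27 reads, 95% counting interval 0.00994 to 0.343). The fitted change was called (adjusted p = 0.0293), and the call was lost without resting CCR2+ve replicate 1 (adjusted p = 0.128), inflamed CCR2+ve replicate 1 (0.0708) or inflamed CCR2+ve replicate 3 (0.0662). Without resting CCR2+ve replicate 1, 3 of the 9 genes were called in this comparison in place of 5. Over all genes, fits of this comparison that left out 1 library called 5001 to 5190 in place of 5327. Conventional dendritic cell markers other than Ccr7 summed to 953 to 2689 CPM in resting and 1390 to 5025 CPM in inflamed CCR2+ve monocytes, mostly Cd74 and other genes of MHC class II presentation. Of the 13 listed markers, Ccr7 among them, 1 rose and 6 fell at an adjusted p below 0.05, against 47.8% of all genes in either direction. Their median log2 fold change was −0.999. Flt3 (32.2 to 2.51 CPM), Cd209a (88.5 to 2.79 CPM) and Clec9a (1.73 to 0.0591 CPM) were lower after inflammation, as Ccr7 was. The part of dendritic cells in the Ccr7 values was not tested. In CCR1/2+ve monocytes Ccr7 had 7, 0, 3 and 16 reads at rest and 10, 1 and 8 reads inflamed (adjusted p = 0.798).

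Between the inflamed CCR1/2+ve and CCR2+ve monocytes 0 of the 9 genes passed the edgeR test, against 0.188% of all genes at an adjusted p below 0.05 and 0.145% with the fold cutoff as well. At an unadjusted p below 0.05 there were 3 of the 9, namely Cxcr2, Cx3cr1 and Ccr7, against 8.98% of all genes. The same 3 did not overlap between the groups, against 9.76% of all genes. Cx3cr1 was lower in CCR1/2+ve monocytes (log2 fold change −1.15, standard error 0.29, adjusted p = 0.281, unadjusted p = 0.00427). Ccr7 had 19 reads in 3 CCR1/2+ve libraries and 2 in 4 CCR2+ve libraries, a ratio of 13.2 (95% counting interval 3.18 to 117, adjusted p = 0.343). DESeq2 called 2 of the 9, Cxcr2 and Cx3cr1 (adjusted p = 0.000199 and 0.00347), as did edgeR with all 19 libraries in one fit (0.0379 and 0.0473). The Ccr2 levels of the inflamed populations lay together, with a log2 fold change of −0.03 (95% interval −0.25 to 0.19). The median log2 fold change was 0.12 over the 9 genes and −0.03 over all genes.

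Compared per kb of exon, which allows levels of different genes to be set side by side, Ccr2 made up 49.7% of the summed RNA of the 9 genes in resting CCR1/2+ve, 55.5% in resting CCR2+ve, 56.4% in inflamed CCR1/2+ve and 58.04% in inflamed CCR2+ve monocytes. What lay beneath Ccr2 changed with condition. At rest Ccr1 and Cx3cr1 had like shares in CCR1/2+ve monocytes (21% and 20.1%), while in CCR2+ve monocytes Cx3cr1 had 32.6% and Ccr1 had 8.17%. After inflammation Ccr1 stood above Cx3cr1 in both, with 33.6% against 7.55% in CCR1/2+ve and 23.1% against 17% in CCR2+ve monocytes. Cxcr4 went from 7.16% to 0.761% in CCR1/2+ve and from 2.51% to 0.707% in CCR2+ve monocytes. In each monocyte group Ccr3, Ccr7, Ccr9 and Cxcr2 each held less than any of the other genes.

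**Figure D5:**
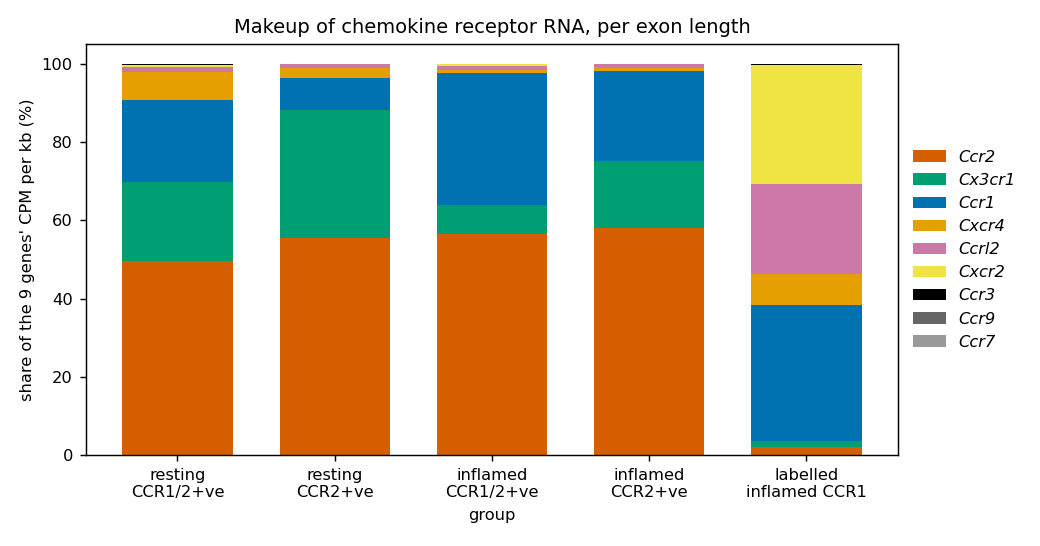
Share of each gene in the summed level of the 9 genes (mean CPM per kb of exon, in percent, stacked to 100) for each group. Ccr2 held 49.7 to 58.04% in the 4 monocyte groups and 2.22% in the libraries labelled inflamed CCR1, where Ccr1, Cxcr2 and Ccrl2 were the largest parts.

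Ligand genes and genes of signalling downstream of the receptors were read from lists, beside the shares of all genes given above (16.9% between the resting populations, 47.8% and 46% with inflammation in CCR2+ve and CCR1/2+ve monocytes). Of 22 ligand genes, 15 were tested. Ccl6 and Ccl9, which encode CCR1 ligands, were the most abundant, with mean levels of 1209 and 460 CPM in resting CCR1/2+ve and 1933 and 745 CPM in resting CCR2+ve monocytes. At rest 3 of the 15 passed the test at an adjusted p below 0.05, all lower in CCR1/2+ve monocytes, among them Ccl9 (log2 fold change −0.62, standard error 0.13, adjusted p = 0.00489) and Ccl5 (−1.70, standard error 0.35, adjusted p = 0.00554). With inflammation 4 rose and 5 fell in CCR2+ve monocytes. Ccl7, which encodes a CCR2 ligand, rose from 0.121 to 2.72 CPM (adjusted p = 0.000152), and Ccl6 fell (−0.76, standard error 0.12, adjusted p = 6.48e-05). In CCR1/2+ve monocytes 2 rose and 2 fell. Ccl2, which encodes the main CCR2 ligand, rose from 10.7 to 17.8 CPM (log2 fold change 0.60, standard error 0.20, adjusted p = 0.0303), and Ccl3, which encodes a CCR1 ligand, fell (−1.18, standard error 0.17, adjusted p = 0.000111). Ccl6 was not among these, with mean levels of 1209 CPM at rest and 1581 CPM inflamed. Its interaction was 0.98 on the log2 scale (standard error 0.18, edgeR adjusted p = 0.0273). It was the only 1 of the 15 called for the interaction, against 0.397% of all genes. Whether that call holds with 1 library left out was not read. The median log2 fold change of the ligand genes was 0 between the resting populations. With inflammation it was 0.15 in CCR2+ve monocytes, while CCR1/2+ve monocytes had 0.57.

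Of 34 signalling gene names on the list, 30 had a row and 29 were tested. At rest 1 was higher and 8 were lower in CCR1/2+ve monocytes. Rgs18, a regulator of G protein signalling, was the higher one (log2 fold change 0.36, standard error 0.07, adjusted p = 0.00445), and Grk5, a receptor kinase, was among the lower ones (−0.73, standard error 0.13, adjusted p = 0.00207). With inflammation 9 rose and 13 fell in CCR2+ve monocytes, and 13 rose and 10 fell in CCR1/2+ve monocytes, with medians of −0.06 and −0.20. Pik3cd, a catalytic subunit of PI3 kinase, rose in both (log2 fold changes 1.80 and 1.68, adjusted p = 1.41e-09 and 1.54e-07). Dock2, which activates Rac in leukocytes, rose in CCR1/2+ve monocytes (log2 fold change 1.33, standard error 0.09, adjusted p = 4.41e-07). Rac1 fell from 825 to 78.3 CPM in CCR2+ve and from 658 to 72.7 CPM in CCR1/2+ve monocytes, and the G protein subunit gene Gnb2 fell from 364 to 82.1 and from 299.9 to 75.1 CPM. In the libraries labelled inflamed CCR1 these genes were low as well, at 33.1 CPM (Rac1) and 63.4 CPM (Gnb2). Rac2, the Rac of blood cells, was at 991 CPM in resting and 1607 CPM in inflamed CCR2+ve monocytes. Of the 14 other receptor genes listed, 9 were tested, and 0 of them passed edgeR's test between the resting populations (1 at an unadjusted p below 0.05). Ccr1l1, a gene similar to Ccr1, was the only one of the 9 past the test with inflammation, and it fell in both (0.561 to 0.126 CPM in CCR2+ve and 0.662 to 0.0777 CPM in CCR1/2+ve monocytes).

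Likeness to other genes was read as Pearson's r of log2 CPM over libraries, a description in which the points share depth, sort and groups. Over the 19 libraries the gene most like Ccr2 was Ctss (r = 1.00), followed by Ifi204 (1.00), with the low levels in the libraries labelled inflamed CCR1 among the points. Over the 15 other libraries, a choice made after the values were seen, Ctss stayed the most like Ccr2 (0.98), and Cx3cr1 was most like Ap2a2 (0.96). Cxcr4 was most like Hist1h3d over 19 libraries (0.98) and over 15 (0.99), with Trim59 (0.97) and Tmx4 (0.98) next. Ccr1 was most like Ciao2a over 19 (0.98) and C1rl over 15 libraries (0.98). Cxcr2 was most like Clec5a and Lcn2 over 19 libraries (0.95 and 0.95) and Adat2 over 15 (0.91). Ccrl2 was most like Wdfy1 over 19 libraries (0.97) and Adssl1 over 15 (0.87). The low counts of Ccr3, Ccr7 and Ccr9 gave lower values of r over 19 libraries, with Gria3 (0.73), Slc35a5 (0.73) and Cox15 (0.86) as the closest genes.

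The libraries labelled inflamed CCR1 had a receptor profile unlike that of the monocytes. Ccr2 was at 4.04, 9.57, 5.27 and 4.38 CPM, and Cx3cr1 at 2.32, 1.67, 3 and 2.54 CPM. Cxcr2 was at 34.4, 27.4, 28.6 and 52.8 CPM, above each of the other 15 libraries, and Ccrl2 at 21.03, 18.6, 26.8 and 25.2 CPM was too. Against inflamed CCR2+ve monocytes 5 of the 9 genes were called, against 31.3% of all genes (48.1% at an adjusted p below 0.05 alone). Cxcr2 (log2 fold change 5.25, standard error 0.35) and Ccrl2 (1.57, standard error 0.22) were higher, and Cx3cr1 (−6.68, standard error 0.25), Ccr2 (−7.74, standard error 0.28) and Ccr1 (−2.45, standard error 0.17) were lower. Against inflamed CCR1/2+ve monocytes 6 of 9 were called, against 27.7% of all genes (43.2% at an adjusted p below 0.05 alone), the same 5 and Ccr7, whose 3 against 19 reads gave a ratio of 0.115 (95% counting interval 0.0218 to 0.391) and whose call was lost in 5 of the 7 fits that left out 1 library. Among these libraries Ccr1 still made up 34.7% of the RNA of the 9 genes per kb, followed by Cxcr2 with 30.4% and Ccrl2 with 22.8%. The median log2 fold changes of the 9 genes, 0.22 and −1.56, stood beside −0.01 and 0 over all genes. Since these libraries are not counted as monocytes, the differences compare libraries as labelled and not populations of monocytes.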

How the data were processed

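Bulk RNA-seq of sorted bone marrow cells was analysed from 19 libraries, grouped by their titles. Per the authors, read pairs passed through fastp and were aligned to GRCm38 with STAR 2.7.10a with only unique alignments kept. They deposited raw read counts per Ensembl gene, not normalized. The strand counted is not given in the sources used here. Of the 20 count columns, 1 matched no sample record and was not used. Genes were named through a table that matched 50744 of 50854 identifiers.

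Tests covered the 18652 genes whose mean count reached 1 read. For each comparison its own libraries alone entered the fit, made with edgeR 4.0.16 in R 4.3.3 from TMM factors by the robust quasi-likelihood F test. P-values were two-sided and adjusted over all 18652 genes by Benjamini and Hochberg's method. A standard error is the fold change on the log2 scale over the root of F, and 95% intervals are normal. Calls used the cutoffs of the study, which had used DESeq2. The interaction was fitted on 15 libraries. CPM levels use TMM factors over the 19 libraries, and lengths are of the union of exons in GENCODE M21. Counts carry no molecular identifiers, so counting intervals and the floor (3 reads) cover counting error only. The fits were also run on simulated data with large changes planted only in genes of higher counts. That check does not reach genes with few reads such as Ccr7. Alternatives were RLE size factors, library totals, DESeq2 1.42.0, no filter, filterByExpr, all libraries in one fit, a replicate block, no fold cutoff and each library left out. Named ligand and signalling genes are at most the 2 with the smallest p in each direction, or those of at least 50 CPM, and like genes are the 2 with the highest r among genes of at least 5 CPM. The members, lists and tests were chosen with earlier results of these data known.

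Replicate numbers were checked for pairing by the correlation of deviations from the group means over 11176 genes. Between the resting populations it was 0.26 to 0.42 for libraries of the same number (4 pairs) and −0.29 to 0.20 for others, so the numbers pair these libraries, on this correlation alone. In the other comparisons at least 1 pair was at 0.1 or below, and pairing was not taken as shown. Between the libraries labelled inflamed CCR1 and inflamed CCR2+ve monocytes it was 0.086 to 0.18 for the same number and −0.18 to 0.065 for others, so pairing stayed undecided there.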

Additional observations from a re-analysis of the deposited data

Results flagged for a closer look

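The change of Ccr2 with inflammation differed between the populations by a test of the difference itself. It was 0.83 higher on the log2 scale in CCR1/2+ve than in CCR2+ve monocytes (standard error 0.18, edgeR adjusted p = 0.0478), with Ccr2 going from 633 to 1240.1 CPM in CCR1/2+ve and from 1218 to 1251 CPM in CCR2+ve monocytes. The change of Ccr3 differed too, by −4.44 on the log2 scale (standard error 0.90, edgeR adjusted p = 0.0447), with Ccr3 going from 1.94 to 0.187 CPM in CCR1/2+ve and from 0.185 to 0.373 CPM in CCR2+ve monocytes. Both adjusted p-values lie just under 0.05, and both calls were lost in 11 of the 15 fits that left out 1 library. The Ccr2 value takes in the resting difference between the populations (−0.87 on the log2 scale). Both gates required the CCR2 reporter and the CCR1 reporter parted them, so the Ccr2 value was not read apart from the sort. Sets of 4 libraries (9 genes in 4 groups, 36 sets) were searched for a library far from the other 3, by its gap relative to the range of the set. The search flagged 0, where chance would give about 1 in 20. The sets share libraries, and the inflamed CCR1/2+ve group was left out. A library not flagged can still stand apart, as for Ccr3 in resting CCR1/2+ve monocytes (116 reads against 53, 37 and 28).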

How the results depend on the processing

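Of the log2 fold changes of single genes under the alternatives, 870 kept direction and call, 48 lost the call, 11 gained it and 32 changed sign. Of the counts of genes called, 93 stayed within 1.5 times the main value and 22 did not. Without the fold cutoff 6 of the 9 genes passed between the resting populations in place of 3, and 5 with inflammation in CCR1/2+ve monocytes in place of 3. Over all genes 3149 and 8586 passed there in place of 792 and 5320. Between the inflamed populations DESeq2, all 19 libraries in one fit and the replicate block each gave 2 in place of 0, and over all genes they gave 107, 53 and 80 in place of 27, with 53 without a filter. For the interaction DESeq2 gave 1, with no adjusted p for Ccr3, and all 19 libraries in one fit gave 0, in place of 2. Over all genes the interaction gave 74 in the fit reported, 113 with RLE factors, 534 with DESeq2, 145 without a filter, 122 with filterByExpr, 187 with all 19 libraries, 222 with the replicate block and 0 to 253 with 1 library left out. Leaving out 1 library gave 2 to 3 of the 9 genes (resting populations), 3 to 5 (inflamed against resting CCR2+ve), 3 to 4 (inflamed against resting CCR1/2+ve), 0 to 1 (inflamed populations), 5 to 7 and 5 to 5 (labelled inflamed CCR1 against CCR1/2+ve and CCR2+ve) and 0 to 2 (interaction). Over all genes the same fits gave, in that order up to the interaction, 518 to 1013, 5001 to 5190, 4687 to 5184, 15 to 42, 4628 to 5101 and 5547 to 5754. The fits reported gave 792, 5327, 5320, 27, 5172 and 5830. The causes were not tested.

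Changes of sign touched no call. With all 19 libraries in one fit Ccr9 between the resting populations was at −0.022 and Ccr2 with inflammation in CCR2+ve monocytes at 0.039. With library totals as the scale, which moved the median of all genes by −0.20 with inflammation in CCR1/2+ve monocytes, Ccrl2 was at −0.011 there. With the replicate block Ccr9 between the resting populations was at −0.086, Ccrl2 between the inflamed populations at −0.075 and Ccr3 in the libraries labelled inflamed CCR1 against CCR2+ve at −0.21. With 1 library left out, Ccr7 (−1.12 to 0.48) and Ccr9 (−0.29 to 0.33) crossed 0 between the resting populations, as did Ccr2 (−0.063 to 0.087) with inflammation in CCR2+ve monocytes, and Ccrl2 (−0.0018 to 0.33) and Ccr7 (−0.13 to 1.18) in CCR1/2+ve monocytes. Between the inflamed populations Ccr2 (−0.097 to 0.070) and Ccrl2 (−0.16 to 0.34) crossed 0. In the libraries labelled inflamed CCR1 Ccr3 did against CCR1/2+ve (−0.018 to 1.57), and Ccr3 (−0.97 to 0.60) and Ccr7 (−0.44 to 0.96) against CCR2+ve. In the interaction Ccr1 (−0.37 to 0.090) and Cxcr2 (−0.064 to 1.03) crossed 0.

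With the replicate block, which pairs the resting populations, calls over all genes went from 792 to 1055 there. This block left the same number of calls among the members (3 of 9), and Ccrl2 passed the adjusted p (0.0343) but not the fold cutoff. In comparisons whose numbers were not shown to pair the libraries it gave Ccr7 an adjusted p of 0.0939 with inflammation in CCR2+ve monocytes and, in the libraries labelled inflamed CCR1 against CCR1/2+ve, gave Ccr7 0.132 and Cxcr2 0.0813, and it called Cxcr2 (0.0101) and Cx3cr1 (0.00102) between the inflamed populations. Ccr7 in the libraries labelled inflamed CCR1 was also lost with DESeq2 (0.0673) and with all 19 libraries (0.0618). With inflammation in CCR1/2+ve monocytes Cxcr2 was called by DESeq2 (0.011), with all 19 libraries (0.0165) and without inflamed CCR1/2+ve replicate 4 (0.0259). Ccr7 (0 to 16 reads per library) and Ccr9 (0 to 42 reads) had wide intervals, and their smaller differences were not detectable at this depth.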
